A study of Bos indicus and Bos taurus with 17 samples.

Results

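Cells taken from the milk of Jersey cows by capture for an epithelial keratin, and labelled as milk epithelial cells, were compared between early lactation (day 15 in milk, D15) and late lactation (D250), to describe which genes and gene functions differed between the ends of the lactation. The comparison covered the named genes of the deposited expression values with at least 1 FPKM (read fragments corrected for transcript length and for library depth) at D15 or at D250. A name that occurred on several entries was represented by the entry with the highest mean over the 6 groups of the study. By this rule 11320 of 21631 gene names were members. A ratio was taken for 11258 of them, and the other 62 were listed at 0 in one of the groups, 31 at D15 and 31 at D250. The study had 17 labelled samples from 2 breeds, Jersey and Kashmiri cattle, at D15, D90 (mid lactation) and D250.

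The Jersey D15 group had 3 samples, labelled as the 1st stage in March, of which 2 came from cows in lactation number 2 and 1 from a cow in lactation number 3. The Jersey D250 group had 3 samples, labelled as the 3rd stage in December, all in lactation number 2. The stage and the month cannot be told apart, and the labels do not say whether a cow was sampled at more than 1 stage. The study's methods describe a single set of cows in each breed, sampled at every stage and all in the same lactation number, which differs from the lactation numbers in the labels. Jersey D90 had 2 samples (July) and each Kashmiri group had 3, under the same months, in lactation number 2 or 3. No treatment was named in any group. Cells were captured from whole milk with magnetic beads carrying an antibody to cytokeratin 18, an intermediate filament protein of simple epithelia. The study's quantitative PCR at D90 found the genes KRT18 and CSN2, a casein, higher in the captured cells than in all milk cells. Its leukocyte, red cell and macrophage markers were lower in the captured cells. The markers read here did not settle the epithelial label. In Jersey cows the 18 epithelial markers found held 0.349% of the FPKM sum of named genes at D15 and 0.174% at D250, and the 13 neutrophil markers 0.709% and 1.96%. In Kashmiri cows the epithelial markers summed to 5718 FPKM at D15 and 2606 at D250, and the neutrophil markers to 195 and 639. The milk protein genes, many of them listed at 0, were not among the epithelial markers. Levels of different lists do not measure cell proportions, and the cells are called captured milk cells here. Sums over a list cover every entry found for it, also those under 1 FPKM. The expression values held 1 FPKM per group and none per cow. The groups therefore had no replicate value, and no error, interval or test could be computed. One cow could carry a group value, and the depth behind the values is unknown. A gene was counted as higher or lower when the log2 ratio of D250 to D15, taken after adding 1 FPKM to each value, reached 2 in either direction, which is 4-fold. Fold differences of single genes are plain ratios of the group values, and the levels of a gene are given throughout in the order D15, D90 and D250.

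Milk epithelial cells line the alveoli of the udder, where they make the caseins, whey proteins, lactose and fat of milk under the control of prolactin, insulin and glucocorticoids. Milk also carries leukocytes, mainly macrophages, neutrophils and lymphocytes, which sense bacteria through Toll-like receptors and answer through NF-kB, a family of transcription factors held inactive in the cytoplasm by inhibitor proteins. As lactation advances, milk yield declines, epithelial cells are lost and the gland moves towards involution.

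Late lactation had more genes past the 4-fold limit upwards than downwards. Of the 11258 genes with a ratio, 1020 (9.06%) were higher and 364 (3.23%) were lower at D250, together 1384 (12.3%). The genes counted as higher made up 73.7% of these. The median log2 ratio of all genes was 0.07, with quartiles of -0.73 and 0.98, and 6520 genes (57.9%) lay within 1 log2 unit of no difference. The upper tail was the longer, with 314 genes at 3 or more and 54 at -3 or less, and with 78 genes at 4 or more and 9 at -4 or less. With the FPKM of both groups rescaled to the same sum without the milk protein genes, 876 genes were higher and 465 lower, and the median of all genes became -0.06. Just inside the FPKM limit was RNF43 with 1.00 FPKM at D250, and just outside was RASL11A with 0.9997 FPKM at D15. TMEM167A stood just inside the upper limit at 9.38 and 40.5 FPKM, and the joined entry CCDC82,MAML2 just outside it at 13.0 and 54.8 FPKM. SAYSD1 stood just inside the lower limit at 14.1 and 2.77 FPKM, and FCGRT just outside it at 317 and 78.6 FPKM.

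The genes counted as higher or lower were chosen by their D15 and D250 values. The direction of their medians and shares between these days follows from that choice. From D15 over D90 to D250 the median FPKM of the higher genes went from 6.65 over 21.1 to 54.7. Their share of the FPKM sum of all named genes was 4.99% at D15 and 34.0% at D250. The genes that were lower late had medians of 49.9, 12.7 and 7.40 FPKM in the same order, and their share went from 9.70% to 1.61%. The number of member genes above 500 FPKM was 211 at D15 and 314 at D250. The sum of FPKM over all entries was 763302 at D15 and 900667 at D250, a ratio of 1.18. Since FPKM are relative, a gene can be higher because others are lower, and in these bulk samples fewer cells of a type and less RNA per cell cannot be told apart.

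**Figure D1:**
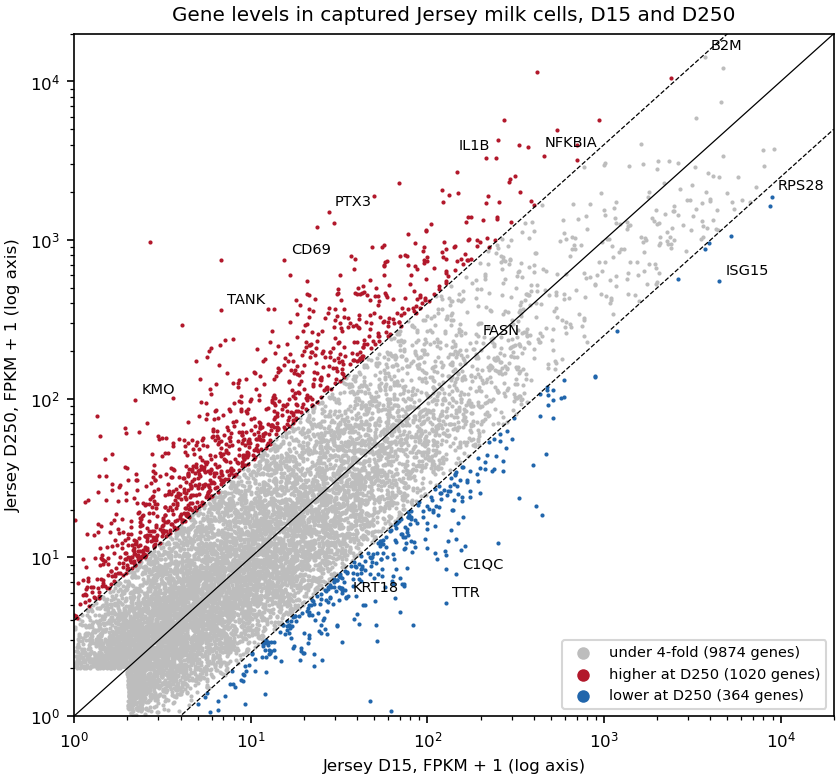
FPKM + 1 of the 11258 Jersey genes with a ratio, at D15 on the horizontal and D250 on the vertical axis, both logarithmic, with 1 point per gene. The solid line marks equal levels and the dashed lines the 4-fold limits. The 1020 red points above the band start mostly from low D15 levels, and the 364 blue points lie below it.

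The highest ratios belonged to joined entries of the mitochondrial genome. The entry with cytb (cytochrome b) had 5.74 FPKM at D15 and 745 at D250 (129.9-fold), and the entry with ND6, a subunit of complex I, had 3.06 FPKM at D15 and 290.0 at D250 (94.7-fold). Both were listed at 0 at D90, which can be a failed estimate. The nuclear genes with the highest ratios had several functions. KMO, the kynurenine hydroxylase of tryptophan breakdown, had 1.21 FPKM at D15, 24.8 at D90 and 97.3 at D250, 80.5-fold higher. TANK, an adaptor that binds TRAF proteins and limits NF-kB signalling, had 5.74, 96.9 and 361 FPKM, 62.9-fold higher. PTX3, a secreted pattern recognition protein, had 26.5, 244 and 1506 FPKM (56.7-fold). These genes were higher at D250 than at D90 as well as at D15, so the D90 value lay between the others in each. The joined entry BIRC2,BIRC3, which holds neighbouring genes for inhibitors of apoptosis that act in TNF receptor signalling, had 22.6, 418 and 1212 FPKM (53.6-fold). CD69, an early activation marker of leukocytes, had 14.5, 326 and 749 FPKM (51.6-fold). GPR84, a receptor for medium chain fatty acids found on myeloid cells, had 28.6, 644 and 1287 FPKM (45.1-fold). FFAR2, the receptor for short chain fatty acids, had 4.62, 31.5 and 181 FPKM (39.2-fold). VCAN (versican, a proteoglycan of the extracellular matrix) had 4.76, 48.7 and 200.1 FPKM (42.003-fold). LAMB3, a chain of the basement membrane laminin, had 1.33, 8.17 and 60.5 FPKM (45.4-fold), from a D15 level close to the 1 FPKM limit. DMXL2, which takes part in the assembly of the proton pump of acidic vesicles, had 4.94, 189 and 206 FPKM (41.8-fold), and its D90 and D250 levels lay close together. CCNL1, a cyclin linked to RNA splicing, had 15.6, 83.9 and 602 FPKM (38.5-fold), and most of that difference lay between D90 and D250.

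The genes with the lowest ratios also had several functions. TTR (transthyretin, a carrier of thyroid hormone and retinol-binding protein) had 126, 58.1 and 4.12 FPKM and was 30.6-fold lower. C1QC, a chain of the first complement component made by macrophages, had 144, 42.9 and 6.795 FPKM (21.2-fold lower). S100A14, a calcium-binding protein of epithelia, had 50.99, 2.1001 and 1.95 FPKM (26.1-fold lower). S100A2, another epithelial member of that family, had 412, 28.9 and 20.03 FPKM (20.6-fold lower), and S100A13 had 64.3, 9.996 and 4.53 FPKM (14.2-fold lower). For these S100 genes most of the difference lay between D15 and D90. PTGDS, a prostaglandin D synthase, had 127, 24.2 and 7.45 FPKM (17.02-fold lower). TNFRSF12A, the receptor of the TNF family ligand TWEAK, had 72.5, 9.84 and 5.63 FPKM (12.9-fold lower). PTPRCAP, a protein that associates with the leukocyte phosphatase CD45, had 126, 21.5 and 9.31 FPKM (13.6-fold lower). NRTN, a neurotrophic factor, had 21.7, 1.12 and 1.44 FPKM (15.1-fold lower). The joined entry of KRT17, a keratin, had 21.7, 2.62 and 1.07 FPKM (20.2-fold lower), and at D250 it stood close to the 1 FPKM limit. ZNF444, TOR4A and MCRIP2 completed the lower end with CMPK2 and IFI6, which are interferon-stimulated genes.

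In absolute FPKM the differences were carried by other genes. The largest rise was that of a joined mitochondrial entry that holds ND3, ND4 and ND5 with genes of cytochrome oxidase and ATP synthase, with 414 FPKM at D15 and 11397 at D250 and a listed 0 at D90. B2M, the light chain of MHC class I, had 3716, 10721 and 14358 FPKM, and CCL14, a chemokine, had 2382, 7509 and 10502 FPKM. FTH1, the heavy chain of ferritin, had 4706 FPKM at D15 and 12092 at D250 but was listed at 0 at D90, which for a gene so abundant in the other groups can be a failed estimate. G0S2, an inhibitor of triglyceride breakdown, had 938, 1632 and 5758 FPKM (6.14-fold). BTG1, an antiproliferative gene, had 329, 1852 and 3960.4 FPKM (12.04-fold), and PLAUR, the urokinase receptor, had 699, 1237 and 4002 FPKM (5.72-fold). The largest drops in FPKM were those of ribosomal protein genes, with ISG15 and TMSB10 beside them. RPS28 had 8889, 2613 and 1877 FPKM, RPLP1 had 9184, 3007 and 3775 FPKM and TMSB10, an actin-sequestering thymosin, had 7932, 6151 and 3683 FPKM.

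**Figure D2:**
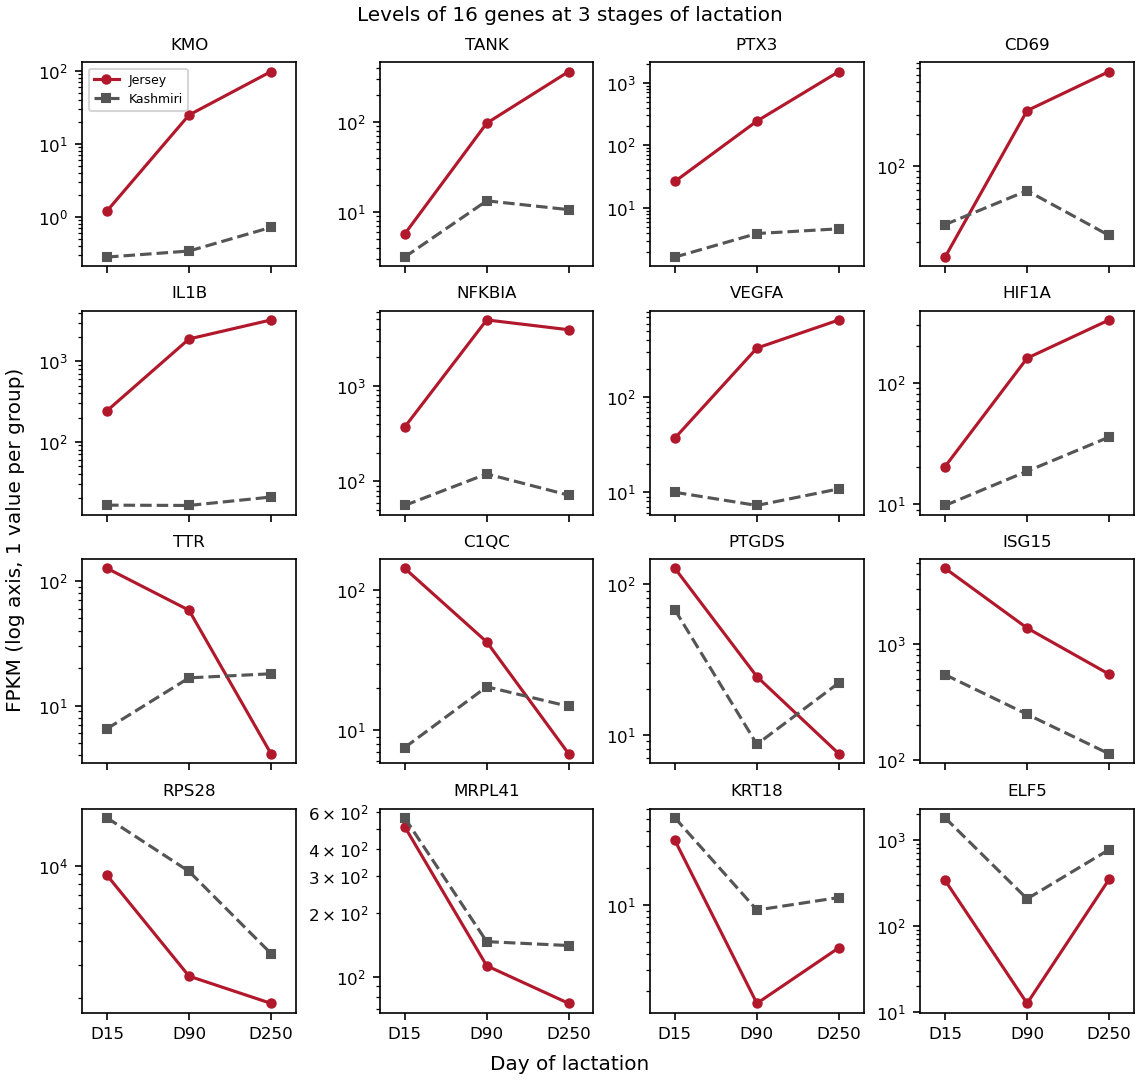
FPKM of 16 genes at D15, D90 and D250 in Jersey (red circles) and Kashmiri (grey squares) captured milk cells, on a logarithmic axis with its own range in each panel, with 1 value per group. Lines join the stages to guide the eye and do not follow single cows. In Jersey KMO runs from 1.21 to 97.3 FPKM and TTR from 126 to 4.12 FPKM, while ELF5 is low at D90 only.

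NF-kB genes that passed the limit were all higher late. The counts of this list and of those that follow stand beside 9.06% higher and 3.23% lower among all genes. All lists were written with results of these data known, so their counts are no independent support. BIRC2 of this list, CD69 of the adhesion list and KMO of the kynurenine list are among the study's top genes between Jersey D15 and D250. In lists of this size 0 lower genes is near the overall share. Of 26 NF-kB signalling genes with a ratio, 13 were higher and 0 lower, with a median log2 ratio of 1.99 against 0.07 over all genes. Among the transcription factors, NFKB1 had 31.7, 182 and 265 FPKM, NFKB2 had 76.9, 524 and 691 FPKM and REL had 3.199, 23.5 and 30.4 FPKM. All passed the limit, and so did the joined entry with RELB (59.2, 188 and 247 FPKM), while RELA, the subunit of the classical dimer, did not (55.6, 67.7 and 183 FPKM). The inhibitors of the pathway were among the highest of the list. NFKBIA, which holds NF-kB in the cytoplasm, had 371, 4932 and 3889.8 FPKM (10.5-fold). TNFAIP3 and CYLD, enzymes that remove ubiquitin chains and so stop the signal, had 24.4, 278 and 267 FPKM and 9.81, 48.6 and 206 FPKM. BCL3, an atypical member of the inhibitor family, had 76.1, 231 and 799 FPKM (10.5-fold). The kinase subunits stayed under the limit, with IKBKB from 40.7 to 143 FPKM and IKBKG from 16.8 to 20.3 FPKM.

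Cytokine genes had the highest median of the groups with at least 5 genes. Of 26 interleukin 1 family, TNF and related cytokine and receptor genes, 16 were higher and 0 lower (median 2.57). IL1B, the main secreted interleukin 1, had 243, 1905 and 3290.1 FPKM (13.5-fold), and IL1A had 3.903, 137 and 173 FPKM (44.2-fold). Their receptor chains were higher as well, with IL1R1 at 7.56, 13.6 and 131 FPKM and the accessory chain IL1RAP at 6.13, 33.4 and 234 FPKM (38.1-fold). IL18, a cytokine matured by the inflammasome, had 4.18, 15.1 and 132 FPKM (31.4-fold), with most of its FPKM difference after D90. OSM (oncostatin M, a cytokine of the interleukin 6 family) had 97.8, 142 and 1145 FPKM (11.7-fold). IL6 itself was low at each stage, with 0.161, 1.704 and 7.71 FPKM. CSF1, the macrophage growth factor, had 46.1, 351 and 560.1 FPKM (12.2-fold). TNF stood on an entry of its own with 4.67, 0.957 and 1.99 FPKM and on a joined entry with LTA with 6.36, 52.1 and 34.1 FPKM, so that its direction depended on the entry. IL1RN, the natural antagonist of interleukin 1, was listed at 702 FPKM at D15 and at 0 at D90 and D250, which gave no ratio.

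Upstream of these, 7 of 19 genes of Toll-like receptors and their adaptors were higher (5 with the FPKM rescaled) and 1 was lower (median 0.95). TLR4, the receptor for lipopolysaccharide, had 40.1, 143 and 337 FPKM (8.39-fold), and its partner LY96 had 21.2, 155 and 196 FPKM (9.27-fold). TLR2, which senses bacterial lipoproteins, had 63.5, 177 and 299.9 FPKM (4.72-fold), and the adaptor MYD88 had 122, 214 and 969 FPKM (7.92-fold). LBP, the secreted protein that hands lipopolysaccharide to CD14, was the lower gene with 29.8, 0.993 and 2.74 FPKM (10.9-fold lower), and CD14 had 329.7, 536 and 636 FPKM. TLR4, TLR2 and MYD88 were thus higher late while LBP was lower.

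Transcription factors of the early response also included many higher genes. Of 27 genes for FOS, JUN, CREB, ATF, MAF and related leucine zipper factors, 13 were higher and 0 lower (median 1.91). FOS had 291, 542 and 2332 FPKM (8.03-fold), FOSB had 8.44, 44.01 and 133 FPKM (15.7-fold) and JUNB had 387, 1195 and 1774 FPKM (4.58-fold). JUN, in contrast, had 163, 199 and 258 FPKM and XBP1, a factor of secretory cells, had 172, 178 and 116 FPKM, both under the limit. NFIL3 had 97.1, 240.1 and 1149 FPKM (11.8-fold), and NFE2L2, the regulator of antioxidant genes, had 18.4, 125 and 187 FPKM (10.2-fold). Among 34 MAP kinase genes 5 were higher and 0 lower (median 0.63), and the highest were phosphatases that switch these kinases off. DUSP1 had 213, 660.5 and 3289.8 FPKM (15.5-fold) and DUSP6 had 148, 534 and 1984 FPKM (13.4-fold), whereas the kinase MAPK3 stayed under the limit.

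Of 25 genes for JAK kinases, STAT factors and their inhibitors, 10 were higher and 0 lower (median 1.34). TYK2 had 11.9, 157 and 228 FPKM (19.2-fold), JAK2 had 6.55, 18.99 and 85.4 FPKM (13.03-fold) and STAT3 had 47.2, 68.8 and 300.1 FPKM (6.36-fold). STAT3 is known for its part in the removal of epithelial cells at involution. SOCS3, which inhibits signalling by interleukin 6 type receptors, had 126, 110.1 and 874 FPKM (6.94-fold), with its D90 level below that at D15. STAT5A and STAT5B, which carry the prolactin signal, had 56.7, 112 and 133 FPKM and 11.1, 13.99 and 37.1 FPKM, differences under the limit. Of 27 insulin, PI3K and mTOR genes, 5 were higher and 0 lower (median 0.88). RICTOR, a subunit of the second mTOR complex, had 1.097, 4.702 and 13.001 FPKM from a D15 level near 1 FPKM. MTOR itself had 4.21, 4.47 and 5.12 FPKM and AKT1 had 176, 125 and 139.7 FPKM, both near their D15 level.

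Chemokine and adhesion genes gave 8 of 19 higher and 0 lower (median 1.53), and 5 of 16 higher and 0 lower (median 1.33). CCL20, which attracts lymphocytes and dendritic cells, had 1.57, 42.7 and 69.4 FPKM (44.1-fold), and CCL2, which attracts monocytes, had 122, 1550.5 and 777 FPKM (6.39-fold). For CCL2, CCL4 (86.2, 1324 and 422 FPKM) and CXCR4 (199, 1297 and 971 FPKM) the highest level was at D90. CCL5, a chemokine of T and NK cells, had 575, 1710.5 and 177 FPKM and differed the other way within the limit. The joined entry of ICAM1 with ICAM4 and ICAM5, ligands of leukocyte integrins, had 30.2, 913 and 487 FPKM (16.1-fold). The integrin chains were nearer to no difference, with ITGB2 from 152 to 164 FPKM and ITGAM from 64.01 to 127 FPKM. The entry named IL-8, the main chemokine for neutrophils, was listed at 313 FPKM at D15, 2108 at D90 and 0 at D250.

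**Figure D3:**
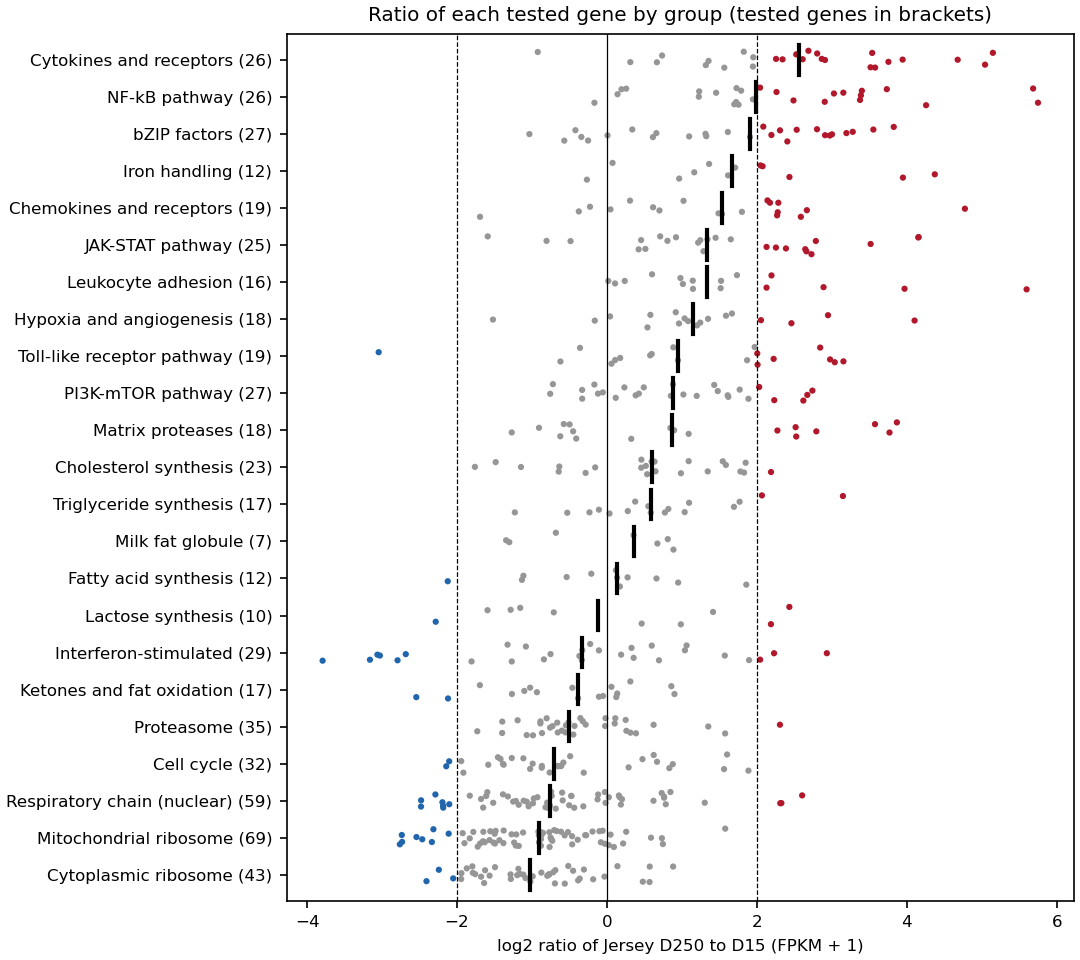
Log2 ratio of D250 to D15 in Jersey (FPKM + 1) for each gene with a ratio, in 23 functional groups ordered by their median (black bars). Red points are at least 4-fold higher, blue points at least 4-fold lower, and dashed lines mark the limits. Medians run from 2.57 for the cytokine genes to -1.02 for the cytoplasmic ribosome.

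Because the cells came from milk, markers of the cell types that it holds were read beside these groups. Of 13 neutrophil markers, 5 were higher and 0 lower (median 1.31), and from D15 over D90 to D250 they summed to 5189.7, 6572 and 15961 FPKM. This list, like the others, was written with results of these data known. Its higher genes GPR84, MCEMP1 and NLRP12 are among the top differences between the breeds in the study, so the count is no independent support. The calprotectin genes S100A8 and S100A9 had 1652, 1276 and 3034 FPKM and 1001, 994 and 2965 FPKM, under the limit at already high levels. The joined entry of CSF3R, the receptor for the neutrophil growth factor, had 310.4, 469 and 2549 FPKM (8.21-fold), and NLRP12 had 2.62, 23.2 and 100.4 FPKM (38.3-fold). MMP9, a gelatinase of neutrophil granules, had 25.04, 70.1 and 14.8 FPKM, with a log2 ratio of -0.72. The markers thus did not differ by a common factor.

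Of 14 macrophage markers, 3 were higher and 3 lower (median 0.62), with sums of 1162, 2442 and 2869 FPKM in the order of the stages. The higher entries and the sums include ADGRE1 on an entry joined with VAV1 (54.1, 190 and 909 FPKM). That difference cannot be assigned to ADGRE1 alone. CD68, a lysosomal glycoprotein of macrophages, had 169, 1211 and 996 FPKM (5.89-fold). The complement genes C1QA, C1QB and C1QC, made by resident macrophages, were all lower, with 145, 60.3 and 12.01 FPKM for C1QA and 98.2, 55.9 and 10.4 FPKM for C1QB. CSF1R, the receptor for macrophage growth factor, had 68.5, 130.2 and 106 FPKM, and CD163, a scavenger receptor, had 30.5, 37.1 and 57.7 FPKM. Macrophage markers therefore went in both directions, and MSR1 and VSIG4 lay within the limit below their D15 level.

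Lymphocyte markers were lower on balance. Of 21 T and NK cell markers, 1 was higher and 3 were lower, and 19 of the 21 had a log2 ratio below 0 (median -1.37). CD3E, a chain of the T cell receptor complex, had 65.5, 31.7 and 19.5 FPKM, CD8B had 16.3, 6.89 and 3.22 FPKM and the kinase LCK had 30.9, 9.45 and 6.47 FPKM. NCR1, an activating receptor of NK cells, was the higher gene with 5.01, 6.76 and 56.3 FPKM (11.2-fold). All 10 B cell markers had a log2 ratio below 0, none past the limit (median -1.03), and their summed FPKM was 40.2 at D15 and 15.3 at D250. MS4A1, which codes for the surface antigen CD20, had 3.72, 1.86 and 1.29 FPKM and stood near the 1 FPKM limit late. Red cell markers were under 1 FPKM in both groups, with HBB listed at 0.0134 FPKM at D15 and 0 at D250. The neutrophil, macrophage and lymphocyte markers moved with the cytokine, NF-kB and chemokine genes or against them, and their part in those results was not tested.

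**Figure D4:**
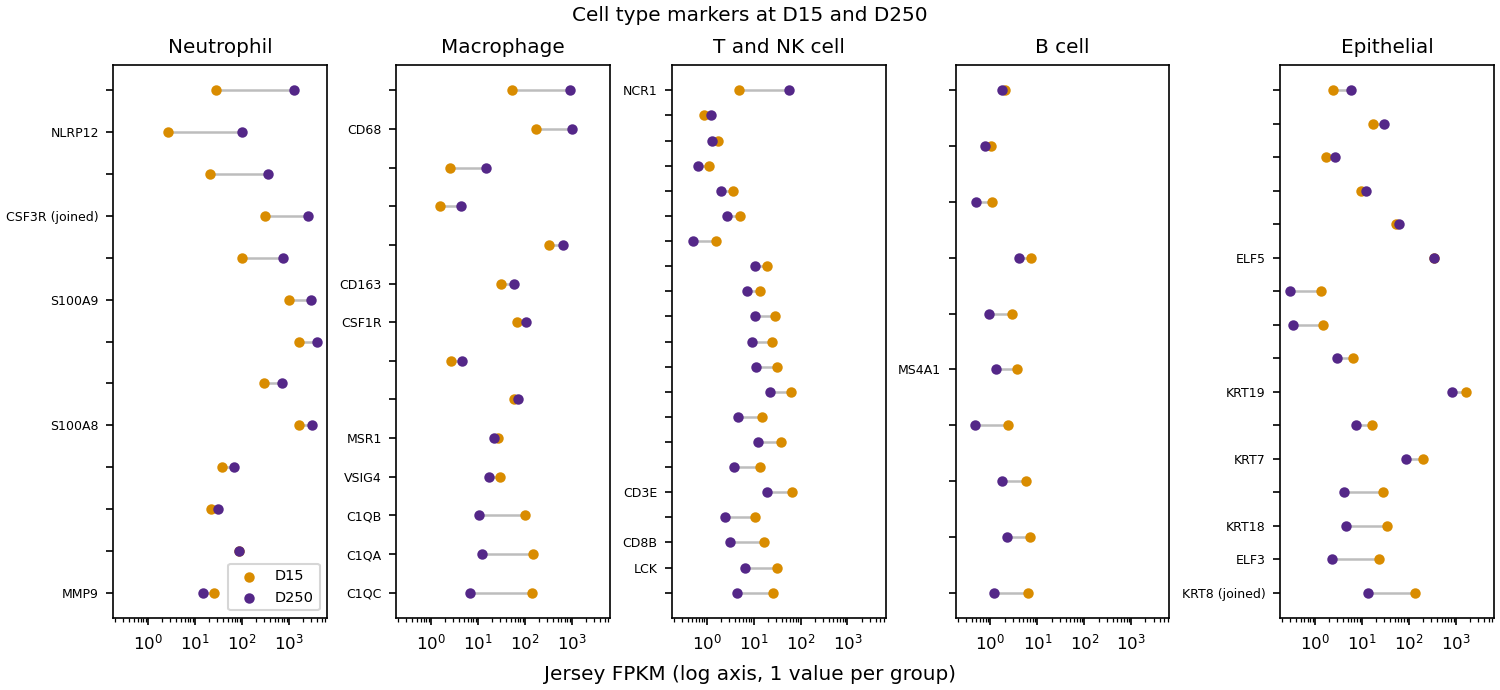
Jersey FPKM of cell type markers at D15 (gold) and D250 (purple) on a logarithmic axis, 1 row per gene with a ratio, ordered by log2 ratio within each cell type, with names for markers described in the text. Of the 21 T and NK cell markers 19 lie to the left at D250, while 12 of 13 neutrophil markers lie to the right, and the epithelial markers are split.

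Interferon response genes were divided. Of 29 genes with a ratio, 3 were higher and 6 lower (median -0.33). ISG15, a ubiquitin-like modifier, had 4494, 1373 and 549.6 FPKM (8.18-fold lower) and IFI6 had 327, 94.96 and 22.7 FPKM (14.4-fold lower). RSAD2 (viperin) had 62.4, 10.6 and 6.09 FPKM (10.3-fold lower), and Mx1, an antiviral GTPase, had 136, 77.7 and 18.8 FPKM (7.25-fold lower). Other classical members of the response lay close to their early level, with IFIT2 from 158 to 135 FPKM and XAF1 from 116 to 108 FPKM. SAMD9 had 8.07, 15.96 and 68.2 FPKM (8.45-fold) and GBP5 had 10.8, 21.4 and 54.1 FPKM (5.03-fold), and both were higher. The genes of MHC class I presentation gave 0 of 14 past the limit (median 0.47), with B2M nearest to it at a log2 ratio of 1.95. Of 17 class II symbols 7 were found, among them the regulators CIITA, RFX5, RFXANK and RFXAP and a joined entry with CTSS. They gave 0 of 7 past the limit. Their median of -0.54 was the value of RFXAP, with 2.39 FPKM at D15 and 1.33 at D250. The invariant chain CD74 had 2336, 3391 and 3165 FPKM and the beta chain BOLA-DRB3 had 892, 482 and 518 FPKM.

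Epithelial identity genes were checked against the label of the cells. Of 16 epithelial markers, 0 were higher and 4 lower (median -0.91), with sums of 2559.9, 99.04 and 1421 FPKM from early to late. KRT18, whose protein was the target of the capture antibody, had 33.7, 1.59 and 4.51 FPKM (7.46-fold lower), and the joined entry of its partner KRT8 with KRT4 had 135, 6.07 and 13.8 FPKM (9.75-fold lower). The KRT18 transcript was thus below the leukocyte transcripts CD68 and S100A8 in all 3 Jersey groups. At D15, however, KRT19 (1687 FPKM) was above S100A8 (1652 FPKM), and ELF5 (338 FPKM) and KRT7 (202 FPKM) were above CD68 (169 FPKM). At D90 and D250 KRT19, ELF5 and KRT7 were below both. Levels of different genes do not measure cell proportions. KRT19 had 1687, 38.2 and 835 FPKM and KRT7 had 202, 13.3 and 88.6 FPKM, both under the limit. ELF5, the factor that drives the secretory alveolar fate, had 338, 12.6 and 349 FPKM, so the early and late levels were close to each other and the D90 level was low. ELF3, an epithelial factor of the same family, had 23.9, 1.85 and 2.33 FPKM (10.3-fold lower). The groups of captured milk cells differed in epithelial marker level by stage, and the part of this in the results below was not tested.

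Of 14 tight junction and polarity genes, 1 was higher and 2 were lower, with a median of 0.01. The median became -0.11 with the FPKM rescaled and -1.32 over the 6 genes with at least 10 FPKM in either group. CLDN3 and CLDN4, claudins that seal the space between epithelial cells, had 109, 4.79 and 14.7 FPKM (7.404-fold lower) and 109.6, 10.002 and 9.65 FPKM (11.4-fold lower). CLDN8 had 4.17, 0.142 and 6.91 FPKM and occludin (OCLN) had 1.12, 0.728 and 1.49 FPKM, so the junction genes differed by unlike amounts. PARD3, a polarity gene, had 3.86, 5.48 and 27.4 FPKM (7.105-fold). Among 9 genes of lactogenic hormone receptors and their effectors, NR3C1, the glucocorticoid receptor, was past the limit with 4.52, 13.9 and 33.4 FPKM (7.38-fold). The prolactin receptor PRLR had 0.523, 0.0464 and 0.435 FPKM and was under 1 FPKM in both groups, and IGF1R had 4.09, 9.49 and 10.6 FPKM.

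The major milk protein genes gave no usable ratio. CSN1S1, CSN2 and PAEP were listed at 0 at D15 and D250, CSN3 at 1817 FPKM at D15 and 0 at D250, and LALBA at 0 FPKM at D15 and 5140.1 at D250. At D90 they were listed between 297 FPKM for LALBA and 2076 FPKM for PAEP. A value of 0 for caseins in lactating cells can be a failed estimate, and GAPDH, a gene of every cell, was listed at 0.00903 FPKM at D15 and 0 at D250.

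Of 7 genes of the milk fat globule none passed the limit (median 0.35), and in the lists of milk fat genes described next the counts were small and not set apart from the 12.3% past it among all genes. XDH, which forms the globule membrane with butyrophilin, had 562, 205 and 986 FPKM, and PLIN2, the coat of lipid droplets, had 659, 535 and 1051 FPKM. FABP3, a fatty acid binding protein, had 2454, 164 and 1529 FPKM, and MFGE8 (lactadherin) had 279.7, 24.1 and 113 FPKM. For XDH, FABP3 and MFGE8 the lowest level was at D90. Of 12 genes of fatty acid synthesis 1 was lower, the mitochondrial acetate enzyme ACSS1 with 77.9, 15.99 and 17.1 FPKM (4.56-fold lower). FASN, the fatty acid synthase, had 188, 9.92 and 228 FPKM, and ACACA, which makes its substrate, had 29.3, 2.22 and 12.97 FPKM. Of 17 genes of triglyceride assembly 2 were higher (median 0.58), and 1 with the FPKM rescaled. ACSL4, which activates long chain fatty acids, had 17.2, 54.1 and 160.0 FPKM (9.31-fold), and the joined entry DGAT2,UVRAG had 108, 46.1 and 456 FPKM (4.22-fold). GPAM, the acyltransferase of the first step, had 13.8, 1.06 and 14.1 FPKM, close to each other early and late.

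Of 10 genes of lactose synthesis and glucose uptake, 2 were higher and 1 was lower (median -0.12). B4GALT1, the catalytic subunit of lactose synthase, had 37.6, 53.5 and 175 FPKM (4.65-fold), and UGP2, which makes UDP-glucose, had 56.1, 91.3 and 307 FPKM (5.47-fold). SLC2A1, the main glucose transporter of the gland, had 40.98, 81.7 and 111 FPKM, and SLC2A8 had 47.1, 16.6 and 8.87 FPKM (5.31-fold lower). Cholesterol genes gave 1 of 23 higher and 0 lower (median 0.59). MSMO1, a sterol demethylating enzyme, had 9.37, 56.3 and 46.2 FPKM (4.93-fold). MVK, which phosphorylates mevalonate, had 75.7, 19.3 and 21.6 FPKM, the lowest ratio of the list. In glycolysis 1 of 19 genes was higher (median 0.23), LDHA (lactate dehydrogenase) with 242, 976 and 1002 FPKM (4.15-fold), and 0 with the FPKM rescaled. Of 17 genes of fatty acid oxidation and ketone metabolism 2 were lower (median -0.39). These were BDH1, which interconverts ketone bodies, with 25.9, 0.448 and 3.61 FPKM (7.17-fold lower), and ACADS, a short chain acyl dehydrogenase, with 27.4, 13.5 and 5.53 FPKM (4.95-fold lower).

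Ribosomal protein genes had the largest drop in their share of the FPKM sum among the groups described. Of 43 cytosolic ribosomal protein genes 38 had a log2 ratio below 0, 3 past the limit and 0 higher (median -1.02). With the FPKM rescaled 6 were past the limit. All 50 entries of the list together held 17.4% of the sum over named genes at D15 and 6.43% at D250, a sum that lacks the milk protein genes listed at 0, and summed to 127629.9, 47839 and 52407 FPKM over the 3 stages. RPS2 had 6719, 1689.9 and 1744 FPKM, RPLP0 had 5337, 1486 and 1728 FPKM and RPSA had 4445, 1231 and 1156 FPKM, each close to its late level at D90. RPS27 (1174, 1568 and 1739.9 FPKM) and RPL39 (1144, 1164 and 1594 FPKM) had ratios above 0. Many genes of this family have processed pseudogenes, so their reads can be split between copies.

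The mitochondrial ribosome and the respiratory chain shared that direction. Of 69 mitochondrial ribosomal protein genes 60 had a log2 ratio below 0, 8 past the limit and 0 higher (median -0.91). MRPL41 had 513, 113 and 74.7 FPKM (6.87-fold lower), MRPS26 had 231, 48.1 and 33.9 FPKM (6.83-fold lower) and MRPL36 had 173, 33.3 and 25.2 FPKM (6.87-fold lower). Of 59 nuclear genes of the respiratory chain and ATP synthase, 3 were higher and 7 lower (median -0.76). NDUFB7 and NDUFS6, subunits of complex I, had 433, 116 and 76.8 FPKM (5.64-fold lower) and 243, 63.5 and 42.6 FPKM (5.69-fold lower). The higher genes included ATP5F1 (126, 235 and 635 FPKM), a subunit of ATP synthase. The genes of the mitochondrial genome stood on 4 joined entries, which were all higher, but 3 of them were listed at 0 at D90. The fourth, with ND1 and ND2, had 291, 2048 and 2421 FPKM (8.32-fold).

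Of 50 translation factors 4 were higher and 0 lower (median 0.13), close to the 9.06% and 3.23% of all genes. EIF1 had 2.13, 16.1 and 55.6 FPKM (26.1-fold), EIF4E, which binds the cap of mRNA, had 9.73, 35.2 and 54.98 FPKM (5.65-fold), and the elongation factor EEF1G had 1685, 563 and 636 FPKM. Of 35 proteasome subunits 1 was higher and 0 lower (median -0.51), and 0 were higher with the entries of a repeated name summed, with PSMB10, an immunoproteasome subunit, at 206, 73.4 and 61.3 FPKM. Cell cycle genes gave 2 of 32 lower and 0 higher (median -0.71), and 4 lower with the FPKM rescaled. The lower genes as first counted were MCM2 (11.4, 2.22 and 1.88 FPKM) and MCM3 (12.01, 3.24 and 1.94 FPKM), parts of the replicative helicase. CDKN1A, an inhibitor of the cycle, had 119.8, 246 and 366 FPKM, in the other direction and under the limit.

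Genes of the low oxygen response, iron handling and proteolysis were read against 9.06% higher and 3.23% lower among all genes, so that 0 lower genes in lists of this size is near the overall share. Of 18 hypoxia and VEGF genes 4 were higher (3 with the FPKM rescaled) and 0 lower (median 1.14). VEGFA, the main angiogenic growth factor, had 37.2, 331 and 655 FPKM (17.6-fold), and VEGFB had 48.1, 37.9 and 16.1 FPKM, in the opposite direction within the limit. Of 12 iron genes 5 were higher and 0 lower (median 1.66), but 3 were higher with the FPKM rescaled in either way. Those 5 include HIF1A, the oxygen-regulated transcription factor, with 20.3, 159 and 328 FPKM (16.1-fold). It was placed on the iron list and not on the hypoxia list. STEAP4, a metalloreductase induced in inflammation, had 17.9, 137 and 391 FPKM (21.8-fold), and the iron exporter SLC40A1 had 11.6, 10.1 and 51.9 FPKM (4.49-fold). Of 18 genes of the plasmin system and matrix proteases 7 were higher and 0 lower (median 0.87). PLAU (urokinase) had 131, 807 and 1921 FPKM (14.7-fold), and its receptor PLAUR was given above. TIMP1, an inhibitor of metalloproteases, had 119.7, 185 and 835 FPKM (6.97-fold), whereas TIMP2 had 427, 391 and 227 FPKM. Protease and inhibitor genes were therefore both among the higher genes.

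Smaller pathways were split by member. In the kynurenine pathway KMO was the gene past the limit of 7, and IDO1, the first enzyme, had 16.6, 12.8 and 23.7 FPKM. In prostaglandin and leukotriene synthesis 3 of 14 were higher and 3 lower. PTGS2, the inducible cyclooxygenase, had 4.23, 27.3 and 36.6 FPKM (8.64-fold), and TBXAS1, which makes thromboxane, had 17.8, 18.8 and 122 FPKM (6.86-fold). Of the leukotriene genes, ALOX5 (10.6, 3.98 and 1.36 FPKM) and LTC4S (5.49, 4.38 and 0.239 FPKM) were lower. ALOX5AP (86.9, 52.6 and 87.4 FPKM) and LTA4H (8.89, 4.70 and 9.16 FPKM), also leukotriene genes, were close to their D15 level at D250. PTGDS was the other lower gene. Of 26 NADPH oxidase and antioxidant genes 4 were higher (median 0.17), with NOS2, the inducible nitric oxide synthase, at 34.5, 171 and 324 FPKM (9.39-fold) and GPX3 at 7.41, 57.99 and 118 FPKM (15.9-fold). Of 8 antimicrobial genes 2 were higher, PTX3 and lysozyme (LYZ, 56.6, 271 and 462 FPKM). Lactoperoxidase (LPO) had 44.2, 1.61 and 39.5 FPKM and the immunoglobulin receptor PIGR had 71.4, 4.76 and 67.3 FPKM, each close early and late and low at D90.

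Of 23 apoptosis genes 3 were higher and 2 lower (median 0.57). BCL2A1, a survival gene under NF-kB control, had 177, 1089 and 1401 FPKM (7.93-fold), and the death receptor FAS had 26.97, 90.3 and 182 FPKM (6.74-fold). FADD, the adaptor of death receptors, had 238, 75.3 and 55.02 FPKM (4.33-fold lower) and BAD had 65.96, 20.7 and 15.5 FPKM (4.26-fold lower). In the unfolded protein response 3 of 22 genes were higher and 1 was lower (median -0.15), with PPP1R15A at 189, 412 and 914 FPKM and SDF2L1 at 173, 74.9 and 23.1 FPKM. The 13 cytosolic heat shock genes and 22 transporters of calcium, phosphate and zinc held no gene past the limit, with medians of -0.26 and 0.46. The transporters had a median of -0.24 over the 9 genes with at least 10 FPKM, and 3 higher genes without a pseudocount. In the lysosome list 1 of 19 genes was lower, CTSW (54.2, 13.7 and 6.63 FPKM), a cathepsin of cytotoxic lymphocytes. Of 13 clock genes 1 was higher, BHLHE40 (56.2, 151 and 723 FPKM), and PER1 had 4.85, 4.44 and 4.71 FPKM. Of 16 nuclear receptors 3 were higher and 1 was lower, with VDR, the vitamin D receptor, at 12.99, 28.96 and 77.2 FPKM (5.95-fold). Actin cytoskeleton genes gave 5 of 35 higher (3 with the FPKM rescaled) and 1 lower (median 0.50), amino acid transporters 1 of 19 and 1 (median 0.60), and sterol efflux genes 1 of 10 and 0 (median 0.39). Extracellular matrix genes gave 2 of 11 higher and 1 lower (median 0.31).

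The same stages in the Kashmiri cows were set beside the Jersey values. Of 11434 Kashmiri genes with a ratio, 199 (1.74%) were higher and 236 (2.06%) lower at D250, together 3.8%, and the median log2 ratio was -0.04. Of 10624 genes with a ratio in both breeds, 53 were higher in both, which is 5.83% of the Jersey genes and 28.5% of the Kashmiri genes that were higher. Lower in both were 77 genes, 21.4% of the lower Jersey genes and 34.7% of the lower Kashmiri genes. The Jersey genes that were higher had a median Kashmiri log2 ratio of 0.76, and those that were lower one of -1.43, against -0.05 over all genes in both. The difference between the breeds could not be tested with 1 value per group.

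By function, the ribosomal genes had medians below 0 in both breeds, -1.02 in Jersey and -1.43 in Kashmiri cows. For the NF-kB genes the medians were 1.99 and -0.28, and for the cytokine genes they were 2.57 and 0.17. None of 25 NF-kB and 24 cytokine genes with a Kashmiri ratio was higher, which is near the 1.74% of all Kashmiri genes. NFKBIA had 55.96 and 71.7 FPKM at D15 and D250 in the Kashmiri cows, and IL1B had 16.2 and 20.5 FPKM, both below the Jersey levels at the same days. Macrophage markers had a median of 0.62 in Jersey and 1.82 in Kashmiri cows, where C1QC had 7.53 and 14.8 FPKM at D15 and D250. B cell markers had medians of -1.03 and 1.06, with MS4A1 in the Kashmiri cows at 2.23 and 6.72 FPKM. Neutrophil markers had medians of 1.31 and 1.03, and S100A8 in the Kashmiri cows had 36.4 and 106 FPKM. Epithelial markers had medians of -0.91 and -0.20, and KRT18 had 51.3 and 11.5 FPKM in the Kashmiri cows, which was lower late as in the Jersey cows.

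**Figure D5:**
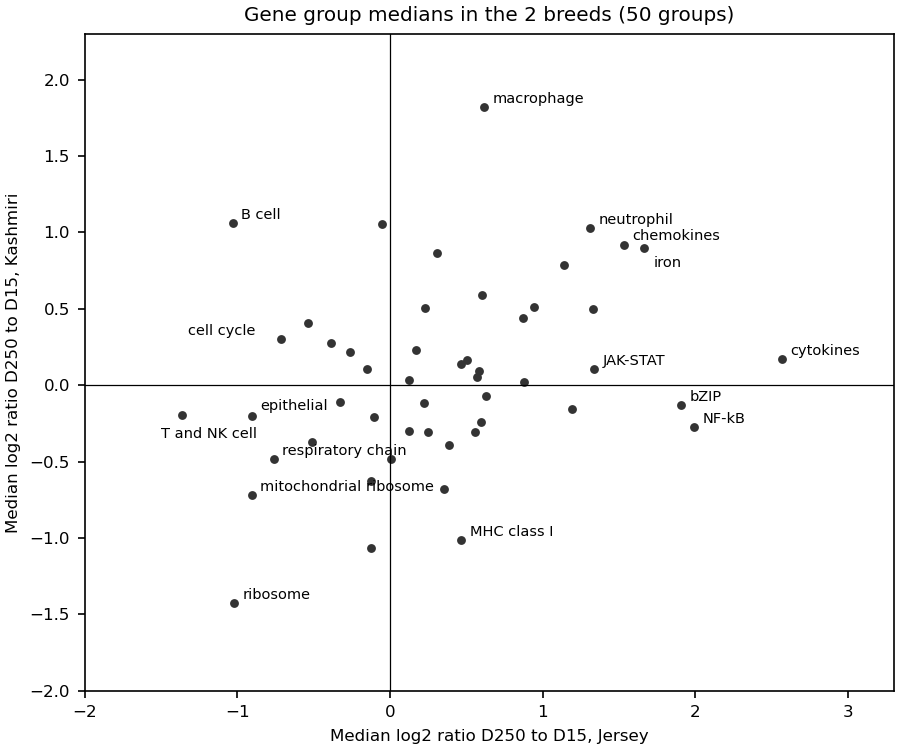
Median log2 ratio of D250 to D15 (FPKM + 1) of 50 functional groups with at least 5 genes with a ratio in each breed, Jersey on the horizontal and Kashmiri on the vertical axis, 1 point per group. The cytokine, NF-kB and leucine zipper groups lie far to the right near the horizontal line, and the ribosome lies below 0 on both axes.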

How the data were processed

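RNA of cells captured from milk with an antibody to cytokeratin 18 was sequenced from stranded mRNA libraries. Per the study's methods, reads trimmed by Trimmomatic were mapped with Bowtie2 and TopHat on the cattle genome UMD3.1, and expression came from Cufflinks and Cuffdiff. The deposited FPKM of the authors hold 1 value for each of 6 groups of breed and stage, on 61264 entries of which 25121 carry a name. Cuffdiff's own depth scaling was kept. The columns headed Local were taken as the Kashmiri breed.

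Ratios of D250 to D15 used a pseudocount of 1 FPKM and an absolute log2 limit of 2, for named genes with at least 1 FPKM in either group and no value of 0. No test was made, since each group had 1 value. The code was tested on simulated data. Members and the 53 functional lists were chosen with earlier results of these data known, and a joined entry was looked up by each of its names.

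Genes named in the text were the 15 highest and 15 lowest ratios among symbols with at least 1 FPKM in both groups, the 10 largest differences in FPKM each way, up to 4 members per list with the largest ratio, the cell type markers and the list members that the study names. Other list members in the text were added after their values were seen. Alternatives changed the pseudocount, the filter, the scaling, the treatment of repeated names and of values of 0, and the limit. The tables were computed with pandas 2.3.3 and numpy 2.4.6 under Python 3.11.15, and drawn with matplotlib 3.10.9. Gene coordinates and sequences were not used here, and some genes that the rule names are not reported here.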

Additional observations from a re-analysis of the deposited data

Results flagged for a closer look

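The genes below passed the 4-fold limit in opposite directions in the 2 breeds between D15 and D250. With 1 value per group the difference between the breeds was not tested, and log2 ratios are given with a pseudocount of 1 FPKM. Higher in Jersey and lower in Kashmiri cows were 7. CCL4, a chemokine, had 2.28 in Jersey (86.2 to 422 FPKM) and -2.52 in Kashmiri cows. G0S2, an inhibitor of triglyceride breakdown, had 2.62 (938 to 5758 FPKM) and -2.55. TNFSF9, a ligand that costimulates T cells, had 2.69 (6.88 to 49.8 FPKM) and -2.20. The joined entry U2,WDR74 had 2.53 and -2.68. The small RNA names U4, Y_RNA and Metazoa_SRP, each kept from many entries of the same name, had 4.55, 4.30 and 3.79 in Jersey and -3.79, -2.28 and -5.06 in Kashmiri cows.

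Others were lower in Jersey and higher in Kashmiri cows. RARRES1, a retinoic acid responsive gene, had -3.15 in Jersey (56.3 to 5.46 FPKM) and 3.49 in Kashmiri cows. RBP4, the retinol carrier of plasma, had -2.88 (25.2 to 2.56 FPKM) and 2.02. The identifiers ENSBTAG00000001595 and ENSBTAG00000038067, which carry no symbol, had -2.27 and -2.37 in Jersey and 2.60 and 2.70 in Kashmiri cows.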

How the results depend on the processing

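The number of genes past the limit depended on the limit and the pseudocount. With an absolute log2 ratio of at least 1 there were 4738 genes, 2747 higher and 1991 lower. Without a pseudocount there were 2299, 1539 higher and 760 lower, and with a pseudocount of 0.1 FPKM 2164, of which 694 were lower, since ratios of low values are then larger. The other alternatives stayed within 1.5 times of the reported counts. Those were values of 0 kept (1038 higher and 387 lower), at least 10 FPKM in either group (920 and 341), summed repeated names (1024 and 362), no filter on low values (1020 and 364), and FPKM rescaled to the sum without milk protein genes (876 and 465) or by the upper quartile (873 and 469). Under the rescalings the share of higher genes was 65.3% and 65.1% in place of 73.7%, and the median of all genes was -0.06 and -0.07 in place of 0.07. Of 407 list medians under the alternatives 396 moved by less than 0.58 and 11 by more, all with at least 10 FPKM required. Of 1150 values of named genes 1127 moved by less than 0.58 and 23 by more, and none turned its sign beyond that. Some list medians changed sign. With at least 10 FPKM in either group the medians of fatty acid synthesis (-0.21), lactose synthesis (0.14), tight junction (-1.32), mineral transport (-0.24), antimicrobial (1.46) and kynurenine (0.49) genes did so, and without a filter that of matrix genes (-0.02). Counts in lists with few calls also moved. Without a pseudocount there were 8 higher PI3K and mTOR genes, 7 lower cell cycle genes and 2 lower B cell markers, and with values of 0 kept 1 cytokine gene was lower. With the FPKM rescaled 1 MAP kinase gene was lower. Under either rescaling the higher genes were 12 for NF-kB, 12 for leucine zipper factors and 9 for JAK and STAT. They were 7 for chemokine, 4 for adhesion and 4 for PI3K and mTOR genes. No paired analysis was possible because each group has 1 value, and for the same reason no replicate could be left out. The reads behind each value are unknown, so genes near 1 FPKM carry the least certain ratios.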

Other observations

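Entries without a name stood apart from the named genes. Of 3828 unnamed entries with at least 1 FPKM in either group and no value of 0, 842 were higher and 46 lower at D250 in Jersey cows, with a median log2 ratio of 1.16 against 0.07 for the named genes. Their share of the FPKM sum was 3.59% at D15 and 8.57% at D250. The entries give no coordinates, and what they hold was not analysed here.

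Among the named members 9646 carried a gene symbol, of which 846 were higher and 287 lower, and 1516 carried an Ensembl identifier alone, of which 150 were higher and 73 lower. Small RNA names made up 158, with 24 higher and 4 lower. Libraries made from polyadenylated RNA capture such RNAs poorly.

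Several abundant genes were listed at 0 in one group and gave no ratio. SRGN (serglycin, a proteoglycan of leukocyte granules) was listed at 1545 FPKM at D15, 5250.2 at D90 and 0 at D250. SDS, a serine dehydratase, was listed at 5009 FPKM at D15, 5469 at D90 and 0 at D250, and TGM3, a transglutaminase, at 599, 818 and 0 FPKM. APOE (apolipoprotein E) was listed at 0 at D15 and had 4414 FPKM at D90 and 639.9 at D250. In Kashmiri cows none of these 4 genes was listed at 0 at D15 or D250.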
